A study of Mus musculus with 48 samples.

Results

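The apolipoprotein and lipoprotein assembly genes followed here in mouse liver were Apoa1, Apoa2, Apoa4, Apoa5, Apob, Apoc2, Apoc3, Apoe and Mttp. They were chosen by gene symbol, as every non-control probe that the scanner output assigns to one of these names, and all 9 genes were measured, by 17 probes, among 20486 genes and 30793 probes that passed the filter on dim signals. The livers came from male p110αhep+/+ mice (labelled LWT), which carry floxed p110α alleles and no Cre, and from male p110αhep-/- littermates (labelled LKO), in which Cre under the albumin promoter deletes exons of p110α in hepatocytes. p110α is a catalytic subunit of phosphoinositide 3-kinase that takes part in insulin signalling in hepatocytes, and its gene is Pik3ca. From the age of 12 weeks, mice received a control diet (CTRL) or a high-fat diet with 60% of calories from fat (HFD) for 12 weeks, and livers were taken at ZT16 from fed mice or from mice fasted for 24 h. Genotype, diet and nutritional state gave 8 groups of 6 mice, with 1 one-colour Agilent array per mouse. The albumin promoter acts in hepatocytes, so other liver cells keep p110α, and in whole liver fewer cells of a type cannot be told apart from less RNA per cell.

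Lipoproteins carry triglycerides and cholesterol through the blood. In hepatocytes, microsomal triglyceride transfer protein, encoded by Mttp, loads lipid onto the structural protein ApoB, and the resulting very-low-density lipoprotein is secreted. ApoA-I and ApoA-II are the main proteins of high-density lipoprotein, ApoC-II activates lipoprotein lipase, ApoC-III restrains the clearance of triglyceride-rich particles, ApoA-V favours that clearance, ApoE is a ligand of lipoprotein receptors, and ApoA-IV is secreted on triglyceride-rich particles. The comparisons ask how loss of hepatocyte p110α, HFD and fasting each change the mRNA of these proteins.

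All arrays showed 52.3% to 59.3% of spots well above background and no saturated spot. Values are log2 signals after quantile normalization, differences are log2 fold changes from limma with 95% confidence intervals, and a change was called at an adjusted p of at most 0.05 over all probes. The probe of Pik3ca, which cannot check the deletion because it need not lie in the deleted exons, was higher in p110αhep-/- mice in 3 of the 4 comparisons, by 0.25 to 0.58, and gave 0.08 in fasted mice on CTRL (adjusted p = 0.531, limma). Of 5 measured hepatocyte markers (Alb, Ttr, Serpina1a, Cps1 and Cyp2e1, with Tf not among the kept genes), the median log2 difference lay between -0.02 and 0.04 in the 12 simple comparisons, and at most 2 of the 5 were called higher and at most 1 lower in any of them. In the fasted p110αhep-/- group on CTRL, 2 arrays stood apart from the 4 others for Apoa4 and Apoc2. For the brightest probe of each of the 9 genes, the called results that rest on this group are given with and without both arrays. Values of second probes are given with both arrays only. These arrays, replicates 5 and 6, lay within the span of the p110αhep+/+ arrays of all groups for Apoa4, Apoc2 and Fabp2, a listed marker. For each of these genes, both lay above every fasted p110αhep+/+ array on CTRL. They read like the rest of their own group for Apoc3 (17.37 and 17.49, against 17.74 to 17.85 in fasted p110αhep+/+ mice on CTRL) and for the marker Spp1 (at most 8.87 on all 6 arrays, against at least 10.02). Their labels were kept.

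The 9 genes lie in 2 clusters and at 3 sites of their own. According to RefSeq, Apoa1, Apoc3, Apoa4 and Apoa5 follow each other on chromosome 9 with no other gene listed between them, and on chromosome 7 Apoc2 and Apoe lie with Apoc4 and Apoc1 between them. The probes used for the genes map, in mm9, to chr9:46037921-46037980 for Apoa1, chr9:46041134-46041193 for Apoc3, chr9:46051206-46051266 for Apoa4 and chr9:46079431-46079490 for Apoa5. Those of the chromosome 7 cluster map to chr7:20257027-20257086 for Apoc2 and chr7:20281732-20281791 for Apoe. Apoa2 was read at chr1:173156445-173156504, Apob at chr12:8012697-8012756 and Mttp at chr3:137753868-137753927.

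The sequences before the RefSeq start sites (GRCm38.p6) of Apoa4, Apoa5, Apoc2 and Mttp are shown as examples. Each is 250 bases, 5′ to 3′ on the gene's own strand, at chr9:46240594-46240843 (plus strand), chr9:46268358-46268607 (plus), chr7:19677942-19678191 (minus) and chr3:138143419-138143668 (minus). Capitals mark matches to any of 6 motifs on either strand. The forkhead site was searched as GTAAACA and the insulin response core as CAAAACA. The site bound by HNF4A was searched as CAAAGTCCA. For the nuclear receptor motif the letters were AGGTCA, for the E-box CACGTG and for the TATA box TATAAA.
Apoa4: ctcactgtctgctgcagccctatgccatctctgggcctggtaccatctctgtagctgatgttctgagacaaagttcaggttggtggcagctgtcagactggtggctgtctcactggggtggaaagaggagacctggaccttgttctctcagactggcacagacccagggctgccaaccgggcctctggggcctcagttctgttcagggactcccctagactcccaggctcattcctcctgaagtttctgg
Apoa5: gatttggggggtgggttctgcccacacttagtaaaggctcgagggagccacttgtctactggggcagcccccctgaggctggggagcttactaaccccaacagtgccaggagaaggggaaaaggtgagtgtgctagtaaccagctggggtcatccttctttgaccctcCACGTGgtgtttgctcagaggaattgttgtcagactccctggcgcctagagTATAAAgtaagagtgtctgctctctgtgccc
Apoc2: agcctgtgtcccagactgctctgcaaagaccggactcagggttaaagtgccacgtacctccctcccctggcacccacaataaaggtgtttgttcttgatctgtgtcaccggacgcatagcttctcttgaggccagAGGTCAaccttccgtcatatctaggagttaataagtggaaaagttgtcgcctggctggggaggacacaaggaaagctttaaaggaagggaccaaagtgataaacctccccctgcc
Mttp: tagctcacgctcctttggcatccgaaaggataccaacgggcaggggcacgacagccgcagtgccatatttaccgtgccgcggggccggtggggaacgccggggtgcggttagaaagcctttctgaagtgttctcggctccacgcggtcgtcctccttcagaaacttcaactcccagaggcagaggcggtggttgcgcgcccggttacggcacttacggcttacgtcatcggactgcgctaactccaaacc
In the window of 250 bases before to 50 after the start, neither Apoa4 nor Mttp nor Apoa1 held any of these letters. Apoa5 held CACGTG at bases -82 to -77 and TATAAA at -31 to -26 before its first listed start. Apoc2 held AGGTCA at -115 to -110 and again at 43 to 48 after the start, and Apob held TATAAA at -60 to -55. Apoe held the forkhead letters at -5 to 2 and those of the insulin response core at 27 to 33 around its first listed start, and Apoa2 held the forkhead letters at -77 to -71 before its second. Apoa2 also held the nuclear receptor motif before its first start, and Apoa2 and Apoe held the TATA box before their second. For scale, among 32817 RefSeq windows of the same length, 3.65% held GTAAACA, 6.29% CAAAACA, 0.475% CAAAGTCCA, 16.3% AGGTCA, 7.15% CACGTG and 13.6% TATAAA. Such a match is a description of letters and no evidence of binding. Of the 9 genes, 8 had a listed window, and Apoc3 is named only.

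**Figure D1:**
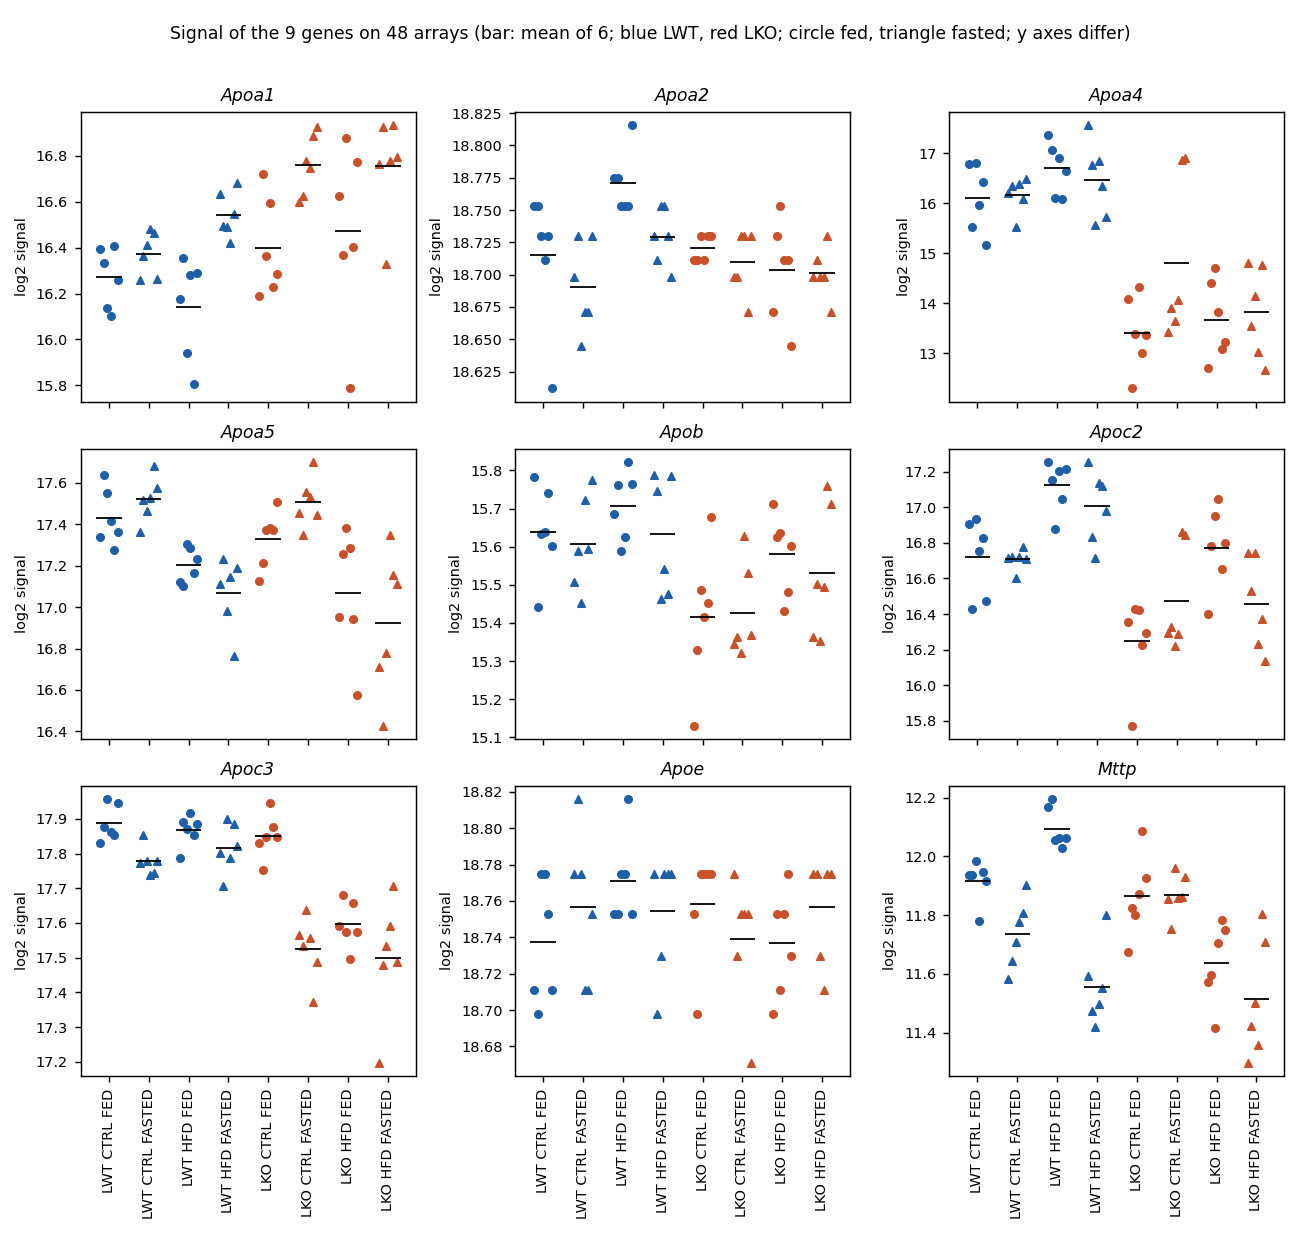
Log2 signal (y axis, own scale per gene) of the 9 genes on each of 48 arrays, by group (x axis), with a bar at the mean of 6; blue is p110αhep+/+ (LWT), red p110αhep-/- (LKO), circles fed, triangles fasted. Apoa4 in the LKO groups lies mostly between 12.29 and 14.81, below every LWT array, except for 2 fasted arrays on CTRL at 16.88 and 16.91.

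The genes differed widely in how far their 8 group means spread. Apoa4 had the widest range, 3.29 on the log2 scale or 9.77-fold, a range wider than that of 99.6% of genes. The ranges of Apoc2 (0.88), Apoa1 (0.62), Apoa5 (0.60) and Mttp (0.58) were above the median gene's 0.393, whereas those of Apoc3 (0.39), Apob (0.29), Apoa2 (0.08) and Apoe (0.03) were not.

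Deletion of hepatocyte p110α was accompanied by lower mRNA of several of these genes, and Apoa4 fell most. In the 4 comparisons of p110αhep-/- with p110αhep+/+ mice, 14 of 36 tests of the 9 genes passed, 13 of them towards lower signal in p110αhep-/- mice and 1 towards higher. This was 38.9% of the tests, against 29% of the tests of all genes in the same 4 comparisons. Apoa4 and Apoc2 fell in all 4, Apoc3 in 3, Mttp and Apob in 1 each, and Apoa1 rose in 1.

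On CTRL in the fed state, 3 of the 9 genes fell and 0 rose, where 10.6% of all genes fell and 10.9% rose. On HFD in the fed state 4 fell and 0 rose, against 16.3% and 16.6% of all genes. In fasted mice on CTRL 3 fell and 1 rose, against 12.3% and 12.5%. In fasted mice on HFD 3 fell and 0 rose, against 17.7% and 19.1%. The median log2 difference of the 9 genes lay between -0.17 and -0.02, beside 0.01 to 0.03 for all genes.

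ApoA-IV is a lipid-binding protein made by intestine and liver. In fed mice on CTRL, Apoa4 ranged from 15.16 to 16.80 (median 16.20) in p110αhep+/+ mice and from 12.29 to 14.32 (median 13.37) in p110αhep-/- mice. The groups did not overlap, and the fitted difference was -2.75 (95% CI -3.64 to -1.86), 6.73-fold lower, with an adjusted p of 1.23e-05 in limma. In fed mice on HFD, Apoa4 ranged from 16.09 to 17.37 (median 16.77) in p110αhep+/+ mice and from 12.71 to 14.71 (median 13.52) in p110αhep-/- mice. Again no array of one genotype reached the other, and the difference was -3.11 (-4.01 to -2.22), 8.66-fold lower (adjusted p = 4.98e-07, limma). In fasted mice on HFD the ranges were 15.57 to 17.57 (median 16.56) and 12.67 to 14.81 (median 13.84), with a difference of -2.66 (-3.58 to -1.74), 6.32-fold lower (adjusted p = 1.28e-05, limma). These groups did not overlap either.

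The fasted mice on CTRL were the exception to this separation. Apoa4 ranged from 15.52 to 16.48 (median 16.27) in p110αhep+/+ mice, and the 6 p110αhep-/- arrays stood at 13.43, 13.91, 13.63, 14.06, 16.88 and 16.91. Of these, 4 lay below every p110αhep+/+ array, and replicates 5 and 6 lay above all 6 of them. The fitted difference was -1.73 (-2.59 to -0.88), 3.33-fold lower (adjusted p = 0.00214, limma), beside plain means of 14.80 and 16.17. The fit gave both high arrays weights of 0.752 and 0.635 and the 4 others 1.08 to 1.47. Without both arrays it was -2.38 (adjusted p = 2.29e-06, limma). This group had the widest spread, an SD of 1.63 against 0.35 to 0.90 in the other 7 groups.

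Within washing batch 1 the Apoa4 differences between genotypes were -2.57 and -3.85 in fed mice on CTRL and HFD, and -2.00 and -3.14 in fasted mice. Within batch 2 they were -2.95, -2.42, -1.89 and -2.22, and of these 8 values, that of fasted mice on CTRL in batch 2 alone missed the threshold (adjusted p = 0.0629, limma). Neither HFD nor fasting gave a called change of Apoa4, but the intervals were wide. The log2 difference of HFD from CTRL in fed p110αhep+/+ mice was 0.51 (-0.34 to 1.36), and that of fasting in p110αhep-/- mice on CTRL was 0.94 (0.05 to 1.82) with an adjusted p of 0.0959 in limma. That last value rests on the same 2 arrays: it was 0.29 without them (adjusted p = 0.587), and 1.39 and called without array weights (adjusted p = 0.0227). In order of group means, Apoa4 stood at 16.70 in fed and 16.47 in fasted p110αhep+/+ mice on HFD, at 16.17 in fasted and 16.11 in fed p110αhep+/+ mice on CTRL, then at 14.80, 13.82, 13.66 and 13.41 in p110αhep-/- mice fasted on CTRL, fasted on HFD, fed on HFD and fed on CTRL. Within a genotype, no tested pair in this order was called, and the fasting pair in p110αhep-/- mice on CTRL was the one whose interval excluded 0.

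Apoc2 encodes the activator of lipoprotein lipase, and its mRNA was lower in p110αhep-/- mice in each of the 4 settings, by smaller amounts than Apoa4. In fed mice on CTRL it ranged from 16.43 to 16.93 (median 16.79) in p110αhep+/+ mice and from 15.77 to 16.43 (median 16.33) in p110αhep-/- mice. The difference was -0.47 (-0.69 to -0.24), 1.38-fold lower (adjusted p = 0.00249, limma), and the groups did not overlap, the highest of one group and the lowest of the other lying within rounding of each other. In fed mice on HFD it was -0.39 (-0.62 to -0.16), and in fasted mice on HFD -0.51 (-0.75 to -0.27), with overlapping ranges in both.

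In fasted mice on CTRL the Apoc2 difference was -0.31 (-0.53 to -0.09) with an adjusted p of 0.0361 in limma. The 6 p110αhep-/- arrays read 16.29, 16.33, 16.22, 16.29, 16.86 and 16.84, against 16.60 to 16.78 in p110αhep+/+ mice. The last 2 of these are the same arrays that were high for Apoa4, and without them the difference was -0.43 (adjusted p = 0.00219, limma). The call was lost when any of 9 single arrays of these 2 groups was left out (differences of -0.38 to -0.23 over all arrays left out). These were p110αhep-/- replicates 1 to 4 and p110αhep+/+ replicates 1, 2, 4, 5 and 6. It was also lost under 7 of 16 alternatives, among them 75th percentile scaling of the processed signal (-0.25, adjusted p = 0.0672, limma). The second Apoc2 probe, at mm9 chr7:20258597-20258656, also fell in all 4 genotype comparisons, by 0.32 to 0.59. By washing batch (1, then 2), the brighter probe gave -0.33 and -0.61 in fed mice on CTRL, -0.47 and -0.23 in fed mice on HFD, -0.29 and -0.40 in fasted mice on CTRL, and -0.62 and -0.35 in fasted mice on HFD. Not called were the batch 1 value in fed mice on CTRL, the batch 2 values on HFD and both values in fasted mice on CTRL.

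**Figure D2:**
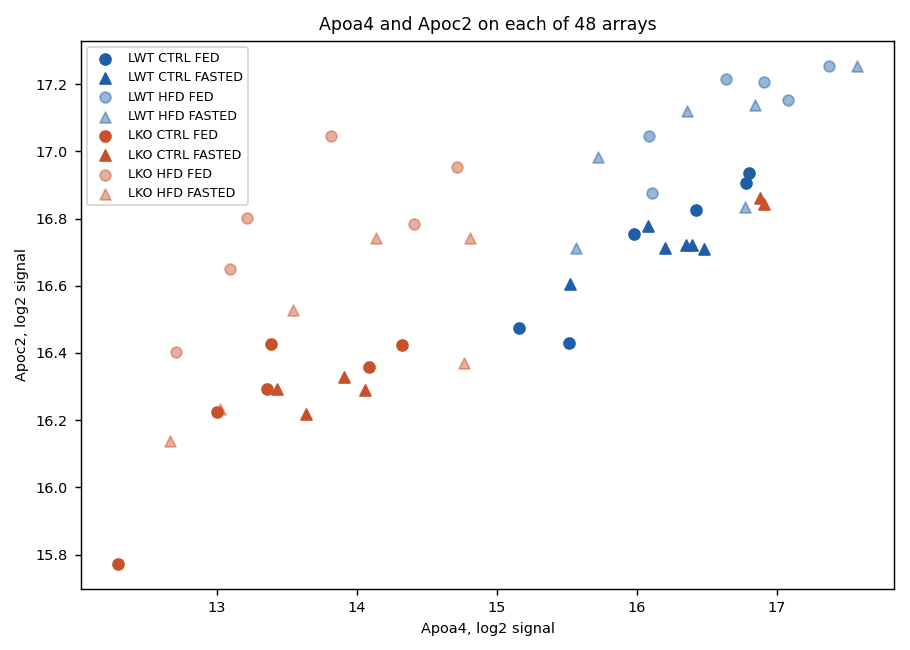
Apoc2 log2 signal (y axis) against Apoa4 log2 signal (x axis) on each of 48 arrays; blue is p110αhep+/+ (LWT), red p110αhep-/- (LKO), circles fed, triangles fasted, pale symbols HFD. The 2 red triangles of the fasted LKO group on CTRL (Apoa4 16.88 and 16.91, Apoc2 16.86 and 16.84) lie among the blue symbols.

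Apoc3 encodes an inhibitor of triglyceride clearance. In fed mice on CTRL its mRNA did not differ between genotypes beyond the spread (log2 difference -0.04, interval -0.14 to 0.06). It fell in p110αhep-/- mice fed HFD, from a range of 17.79 to 17.92 (median 17.88) to one of 17.50 to 17.68 (median 17.58), with no overlap and a difference of -0.27 (-0.37 to -0.17, adjusted p = 4.4e-05, limma). In fasted mice on CTRL it fell by 0.23, from 17.74 to 17.85 (median 17.78) to 17.37 to 17.64 (median 17.55), again without overlap, and without both arrays that stood apart it fell by 0.20 (adjusted p = 0.00226, limma). In fasted mice on HFD it fell by 0.31 (adjusted p = 5.13e-06, limma), from 17.71 to 17.90 to a wider range of 17.20 to 17.71. Under 75th percentile scaling the fed HFD difference was -0.10 and was not called (adjusted p = 0.214, limma). Within washing batches 1 and 2 the 3 called differences were -0.29 and -0.26 (fed, HFD), -0.20 and -0.21 (fasted, CTRL), and -0.15 and -0.45 (fasted, HFD). Not called were the batch 2 values in fed mice on HFD and fasted mice on CTRL, and the batch 1 value in fasted mice on HFD. A second probe of Apoc3 at chr9:46041353-46041412 fell in the same 3 comparisons by 0.29, 0.39 and 0.42, while another, dim probe at chr9:46043606-46043665 fell in none of them.

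Mttp, the transfer protein that lipidates ApoB, differed between genotypes in fed mice on HFD. It ranged from 12.03 to 12.19 (median 12.06) in p110αhep+/+ mice and from 11.41 to 11.78 (median 11.65) in p110αhep-/- mice. The groups did not overlap, and the difference was -0.43 (-0.56 to -0.29), 1.35-fold lower (adjusted p = 2.6e-06, limma), with -0.41 and -0.40 within washing batches 1 and 2. In the other 3 settings the difference was -0.07, 0.13 and -0.03 in fed mice on CTRL, fasted mice on CTRL and fasted mice on HFD, and none was called. The second Mttp probe, at chr3:137806360-137806419, was well above background on 20 of 48 arrays, with raw signals of 37 to 57 beside median local backgrounds of 22 to 42. Its genotype values differed from those of the brighter probe (-0.06 in fed and 0.32 in fasted mice on HFD), and at this signal it cannot check them.

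Apob, its lipid-accepting partner, was lower in p110αhep-/- mice in fed mice on CTRL by 0.23 (interval of the difference -0.38 to -0.07, adjusted p = 0.0287, limma). Its ranges overlapped, 15.13 to 15.68 (median 15.43) against 15.44 to 15.78 (median 15.64). This call was lost under 7 of 16 alternatives, among them 75th percentile scaling, where the difference was -0.13, and within each washing batch, where it was -0.18 and -0.27. It was also lost without replicate 1 or 2 of the p110αhep-/- group or replicate 1 or 5 of the p110αhep+/+ group (differences of -0.28 to -0.17 over all arrays left out). The second Apob probe, which spans 1615 bases of the genome, gave -0.05 (adjusted p = 0.659, limma).

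Apoa1, the main protein of high-density lipoprotein, was higher in p110αhep-/- mice in the fasted state on CTRL. It ranged from 16.60 to 16.92 (median 16.76) in p110αhep-/- mice and from 16.26 to 16.48 (median 16.39) in p110αhep+/+ mice, without overlap. The log2 difference was 0.35 (0.15 to 0.56, adjusted p = 0.00973, limma), and 0.31 without both arrays that stood apart. Within washing batches 1 and 2 it was 0.28 and 0.40, neither of them called with 3 arrays a group. On HFD the differences were 0.25 in fed and 0.23 in fasted mice and were not called, but under 75th percentile scaling they were 0.38 and 0.41 and passed the test (adjusted p = 0.00653 and 0.0041, limma). With the slide as a block, each slide holding 1 array of every group, the fed difference was 0.28 and passed (adjusted p = 0.0416, limma).

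Apoa5, whose product favours triglyceride clearance, had genotype differences of -0.19 to -0.02, none of which passed. Its neighbours in the chromosome 9 cluster thus gave different values in fed mice on CTRL, where Apoa4 differed by -2.75, Apoc3 by -0.04, Apoa1 by 0.11 and Apoa5 by -0.08.

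**Figure D3:**
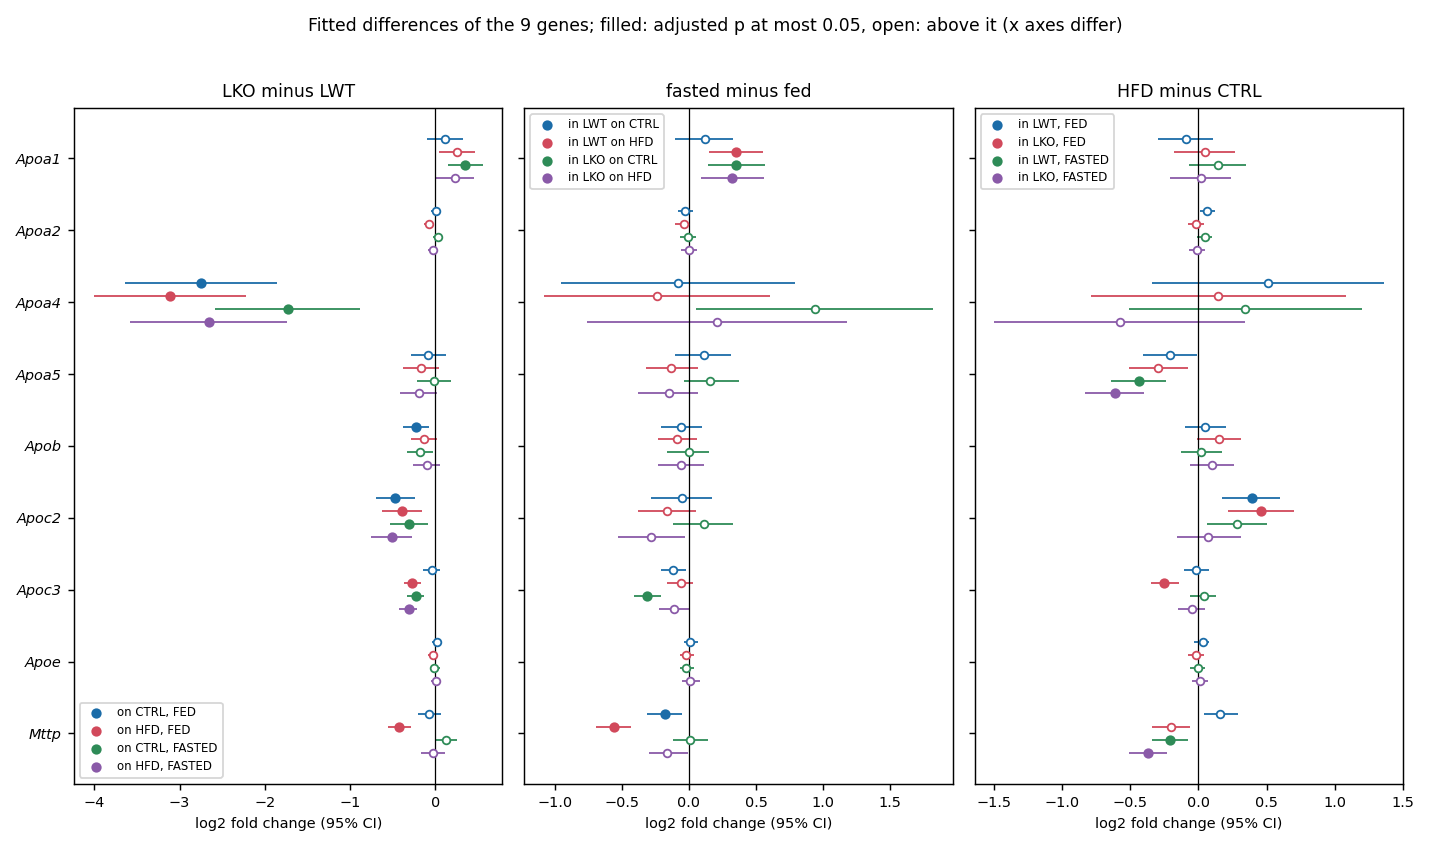
Fitted log2 fold change (x axis, own scale per panel) with 95% confidence interval for the 9 genes (y axis), in the 4 comparisons of genotype, of fasting and of diet; filled points have an adjusted p of at most 0.05. The 4 Apoa4 differences between genotypes lie between -3.11 and -1.73, and all other points lie between -0.61 and 0.94.

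HFD gave 7 called changes of these genes, a count that rose to 12 under 75th percentile scaling and to 13 when any probe of a gene could pass. In the 4 comparisons of HFD with CTRL, the 7 calls among 36 tests were 19.4% against 15.8% over all genes, with 2 towards higher and 5 towards lower signal. In fed p110αhep+/+ mice 1 of the 9 genes rose and 0 fell, where 12.4% of all genes rose and 11.7% fell. In fed p110αhep-/- mice 1 rose and 1 fell, against 5.82% and 6.38%. In fasted p110αhep+/+ mice 0 rose and 2 fell, against 8.96% and 6.97%, and in fasted p110αhep-/- mice 0 rose and 2 fell, against 5.65% and 5.18%.

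Apoc2 rose with HFD in fed mice of both genotypes. In p110αhep+/+ mice it went from 16.43 to 16.93 (median 16.79) on CTRL to 16.88 to 17.26 (median 17.18) on HFD, a difference of 0.39 (0.17 to 0.60, adjusted p = 0.00766, limma). In p110αhep-/- mice it went from 15.77 to 16.43 (median 16.33) to 16.40 to 17.04 (median 16.79), a difference of 0.46 (0.22 to 0.70, adjusted p = 0.00751, limma). Both pairs of groups overlapped by 1 or more arrays, and within washing batches 1 and 2 the differences were 0.45 and 0.26 in p110αhep+/+ and 0.31 and 0.64 in p110αhep-/- mice. In fasted mice the difference was 0.28 and 0.07 in the 2 genotypes, neither of them called.

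Apoa5 fell with HFD in fasted mice of both genotypes. In p110αhep+/+ mice it went from 17.36 to 17.68 (median 17.52) on CTRL to 16.76 to 17.23 (median 17.13) on HFD, with no overlap and a difference of -0.44 (-0.64 to -0.24, adjusted p = 0.00172, limma). In p110αhep-/- mice it went from 17.35 to 17.70 (median 17.49) to 16.43 to 17.35 (median 16.94), a difference of -0.61 (-0.83 to -0.40, adjusted p = 0.000105, limma) or 1.53-fold lower, and -0.59 without both arrays that stood apart (adjusted p = 0.000463, limma). In fed mice the differences were -0.21 and -0.30 and were not called. The second probe of Apoa5, at chr9:46078579-46078638, fell in all 4 diet comparisons by 0.37 to 0.63, and the brighter probe was called in all 4 under 75th percentile scaling as well, at -0.33 and -0.32 in fed mice. In washing batches 1 and 2 the fasted differences were -0.28 and -0.62 in p110αhep+/+ mice and -0.42 and -0.73 in p110αhep-/- mice, and the batch 1 values were not called.

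Mttp also fell with HFD in fasted mice, by 0.21 in p110αhep+/+ mice (interval of the difference -0.34 to -0.08, adjusted p = 0.0201, limma) and by 0.37 in p110αhep-/- mice (-0.51 to -0.23, adjusted p = 0.00027, limma), where it was -0.36 without both arrays that stood apart (adjusted p = 0.000946, limma). In washing batches 1 and 2 these were -0.11 and -0.33, and -0.34 and -0.43, and the batch 1 values were not called. In p110αhep+/+ mice the call was lost without CTRL replicate 5 or 6 or HFD replicate 2, 3 or 4 (differences of -0.25 to -0.18 over all arrays left out). It was also lost under 4 of 16 alternatives (washing batch 1, no filter on dim probes, no array weights, and arrays of the same nutritional state only). In fed p110αhep-/- mice the Mttp difference with HFD was -0.20 (-0.34 to -0.06) and just missed the threshold (adjusted p = 0.0549, limma), and 7 of 16 alternatives called it, at -0.26 to -0.20. In fed p110αhep+/+ mice it was 0.16 (0.04 to 0.29, adjusted p = 0.0582, limma), called under 3 alternatives. Apoc3 fell with HFD in fed p110αhep-/- mice, by 0.25 (-0.35 to -0.14, adjusted p = 0.000868, limma), from 17.75 to 17.95 (median 17.85) to 17.50 to 17.68 (median 17.58), without overlap. In fed p110αhep+/+ mice the difference was -0.02 and not called, but it was -0.18 and called under 75th percentile scaling (adjusted p = 0.0238, limma), and the dim probe of Apoc3 fell by 0.39 in fed mice of both genotypes.

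Fasting for 24 h gave few called changes of these genes. In the 4 comparisons of fasted with fed mice, 6 of 36 tests passed, 3 in each direction, which is 16.7% against 31.2% over all genes. In p110αhep+/+ mice on CTRL 0 of the 9 genes rose and 1 fell, where 16% of all genes rose and 16.5% fell. In p110αhep+/+ mice on HFD 1 rose and 1 fell, against 13.8% and 14.7%. In p110αhep-/- mice on CTRL 1 rose and 1 fell, against 16.4% and 19.1%, and on HFD 1 rose and 0 fell, against 13.9% and 14.6%.

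Apoa1 rose with fasting in 3 of the 4 settings. In p110αhep+/+ mice on HFD it went from 15.81 to 16.35 (median 16.23) in fed mice to 16.42 to 16.68 (median 16.52) in fasted mice, with no overlap and a difference of 0.35 (0.15 to 0.55, adjusted p = 0.00763, limma). In p110αhep-/- mice it rose by 0.35 on CTRL (0.14 to 0.57, adjusted p = 0.00788, limma), and by 0.31 without both arrays that stood apart, and by 0.32 on HFD (0.09 to 0.56, adjusted p = 0.034, limma), with overlapping ranges in both. In p110αhep+/+ mice on CTRL the difference was 0.12 (-0.10 to 0.33) and was not called, but it was called under 75th percentile scaling (0.28, adjusted p = 0.0403, limma) and median scaling (0.26, adjusted p = 0.0383, limma). Within washing batches 1 and 2 the called rises were 0.31 and 0.45 in p110αhep+/+ mice on HFD, 0.36 and 0.24 in p110αhep-/- mice on CTRL, and 0.59 and -0.05 in p110αhep-/- mice on HFD. The first was not called within batch 1 and the second was not called within batch 2. The rise in p110αhep-/- mice on HFD did not hold in batch 2, and it was also lost without fasted replicate 2, 4, 5 or 6 or fed replicate 2, 4 or 5 (differences of 0.20 to 0.41 over all arrays left out), with no filter on dim probes and with no array weights.

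Mttp fell with fasting in p110αhep+/+ mice, most on HFD. On HFD it went from 12.03 to 12.19 (median 12.06) in fed mice to 11.42 to 11.80 (median 11.53) in fasted mice, with no overlap, a difference of -0.56 (-0.69 to -0.43) or 1.47-fold lower (adjusted p = 3.3e-09, limma), and -0.55 and -0.57 within washing batches 1 and 2. On CTRL the difference was -0.18 (-0.31 to -0.05, adjusted p = 0.0273, limma), which was lost under 7 of 15 alternatives and without fasted replicate 1, 2 or 3 or fed replicate 3 (differences of -0.22 to -0.15 over all arrays left out). In p110αhep-/- mice the differences were 0.01 on CTRL and -0.16 on HFD (-0.30 to -0.01, adjusted p = 0.105, limma).

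These Mttp differences were themselves tested against each other. The fasting difference on HFD was 0.40 higher in p110αhep-/- than in p110αhep+/+ mice (0.21 to 0.60, adjusted p = 0.0116, limma), a comparison in which 3.37% of all genes passed. The HFD difference in fed mice was 0.36 lower in p110αhep-/- mice (difference -0.36, -0.55 to -0.17, adjusted p = 0.0275, limma), where 2.83% of all genes passed. Within p110αhep+/+ mice the fasting difference was lower on HFD than on CTRL by 0.38 (difference -0.38, -0.56 to -0.19, adjusted p = 0.018, limma), where 2.36% of all genes passed. These 3 tests share the fed p110αhep+/+ group on HFD, which had the highest Mttp of all 8 groups, so they are not independent of each other. Within washing batches 1 and 2 they gave 0.33 and 0.39, -0.33 and -0.37, and -0.35 and -0.42, none of them called with 3 arrays a group. The genotype by diet call was lost without replicate 5 or 6 of the fed p110αhep-/- group on CTRL or replicate 1 or 2 of that on HFD (values of -0.40 to -0.32 over all arrays left out), and under 5 of 16 alternatives, which were both washing batches, the washing batch not corrected, no filter on dim probes and the median over the probes of the gene, which takes in the probe near background. The diet by fasting call in p110αhep+/+ mice was lost without array weights and with no filter on dim probes. For the other 8 genes no interaction passed with the brightest probe, and none of the 9 did so for genotype by diet in fasted mice (4.96% of all genes), genotype by fasting on CTRL (3.92%) or diet by fasting in p110αhep-/- mice (7.9%). In the last of these the second Apoc3 probe did pass (0.30, adjusted p = 0.0414, limma).

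**Figure D4:**
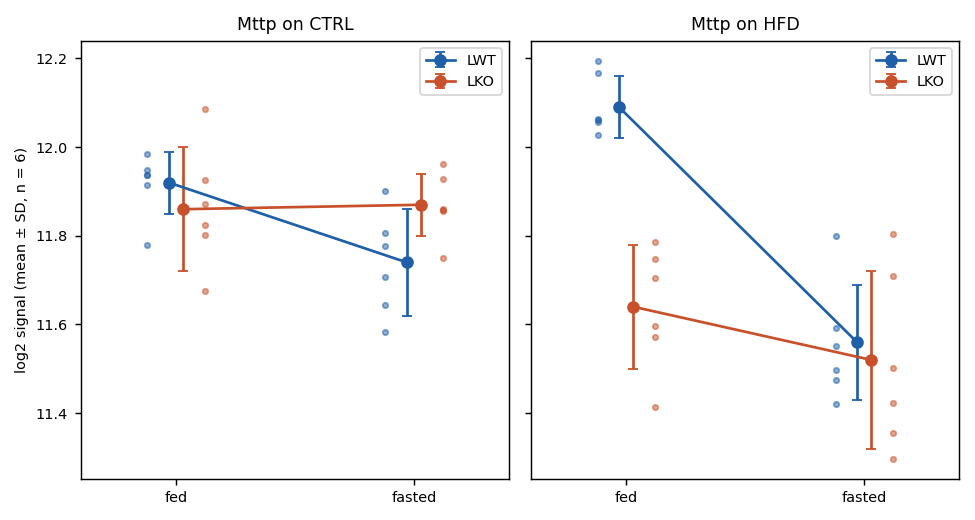
Mttp log2 signal (y axis; mean ± SD of 6 arrays, small dots single arrays) in fed and fasted mice (x axis) on CTRL (left) and HFD (right), p110αhep+/+ (LWT) blue and p110αhep-/- (LKO) red. The fed LWT group on HFD stands at 12.09 ± 0.07, above the 3 other groups on HFD at 11.52 to 11.64.

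Apoc3 was the one gene of the 9 that fell with fasting in p110αhep-/- mice. On CTRL it went from 17.75 to 17.95 (median 17.85) to 17.37 to 17.64 (median 17.55), with no overlap and a difference of -0.31 (-0.41 to -0.21, adjusted p = 2.47e-06, limma), and -0.29 and -0.31 within washing batches 1 and 2. Under 75th percentile scaling it was -0.16 and still called (adjusted p = 0.0445, limma), and without both arrays that stood apart it was -0.28. In p110αhep+/+ mice on CTRL the difference was -0.12 (-0.21 to -0.02) and narrowly missed the threshold (adjusted p = 0.0568, limma). The second Apoc3 probe fell in both genotypes on CTRL, by 0.22 in p110αhep+/+ mice (adjusted p = 0.00596, limma) and by 0.46 in p110αhep-/- mice (adjusted p = 1.29e-07, limma), and the brighter probe was called in p110αhep+/+ mice when only probes above background on all arrays were kept (adjusted p = 0.0443, limma).

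Apoa5 and Apoc2 gave no called change with fasting, but some alternatives called them. On CTRL the Apoa5 differences were 0.11 in p110αhep+/+ and 0.16 in p110αhep-/- mice, and they were 0.28 and 0.35 under 75th percentile scaling (adjusted p = 0.0229 and 0.00462, limma) and 0.30 and 0.34 under median scaling, called in both. The second Apoa5 probe rose in p110αhep-/- mice on CTRL, by 0.30 (adjusted p = 0.0287, limma). For Apoc2 the difference in p110αhep-/- mice on HFD was -0.28 (-0.53 to -0.03, adjusted p = 0.0898, limma), and it was -0.33 and called with the slide as a block (adjusted p = 0.0262, limma). In p110αhep-/- mice on CTRL it was 0.11, and 0.27 and called under 75th percentile scaling (adjusted p = 0.0403, limma).

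Apoa2 and Apoe gave no called change in any of the 12 comparisons, and here the measurement sets a limit. Their probes ranked between 4th and 12th and between 4th and 10th brightest of 30793 on the arrays, at up to 58.7% and 60.6% of the saturation value. Quantile normalization gives each rank the same value on every array, so the 48 arrays held only 25 different values for Apoa2 and 19 for Apoe. Their differences lay between -0.07 and 0.06 for Apoa2 and between -0.03 and 0.03 for Apoe. Without quantile normalization, under 75th percentile scaling, they lay between -0.15 and 0.08 and between -0.18 and 0.12, and 1 of these, Apoe in fed p110αhep+/+ mice with HFD, passed at -0.18 (adjusted p = 0.0393, limma). The less bright second probe of Apoe, at chr7:20281578-20281627, passed in 3 comparisons and in the other direction with HFD: it rose by 0.16 in fed p110αhep+/+ and by 0.15 in fasted p110αhep-/- mice, and it fell by 0.16 in p110αhep-/- against p110αhep+/+ mice fasted on CTRL. The second probe of Apoa2, at chr1:173156320-173156379, rose by 0.10 with HFD in fed p110αhep+/+ mice (adjusted p = 0.0191, limma). The direction of Apoe with HFD therefore depended on the scaling and the probe.

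**Figure D5:**
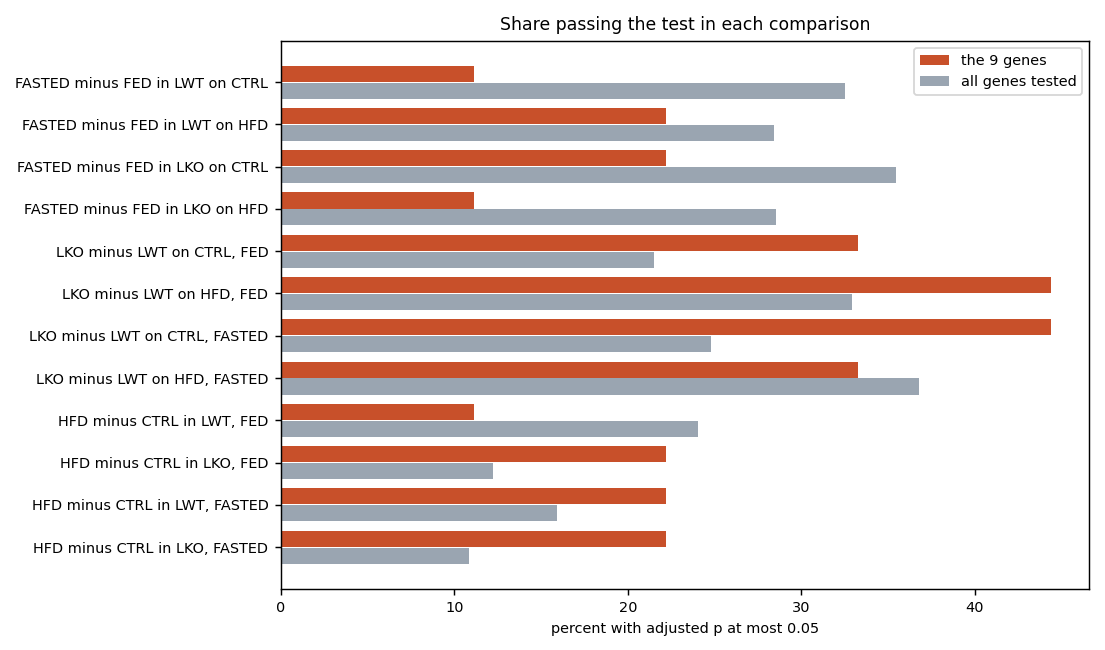
Percent of the 9 genes (red) and of all 20486 genes (grey) with an adjusted p of at most 0.05 (x axis) in each of the 12 simple comparisons (y axis). The red bars range from 11.1% to 44.4%, and each gene is 11.1% of the 9.

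Requiring a fold change over 1.5 as well left 4 of the 14 genotype calls, all of Apoa4, and 1 of the 7 diet calls, Apoa5 in fasted p110αhep-/- mice. It left 0 fasting and 0 interaction calls. Over all genes and the comparisons of a kind, 4.93% of genotype tests, 2.69% of diet tests, 5.78% of fasting tests and 1.61% of interaction tests passed both thresholds.

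Further genes of lipoprotein metabolism were counted as passing in at least 1 of the 4 comparisons of a kind. Over all genes, 32.2% rose and 28.7% fell in at least 1 genotype comparison and 59.3% did either. For fasting these shares were 30.3%, 32.1% and 60.4%, and for HFD 22%, 21.9% and 41.9%. The share of all genes that passed in all 4 comparisons of a kind was not counted. Genes named below for all 4 settings therefore have no such share beside them. A change in p110αhep-/- mice that is not given as one with fasting or with HFD is against p110αhep+/+ mice. Among 7 other apolipoproteins, between genotypes 3 rose and 3 fell in at least 1 setting, with 1 in both counts and 2 in neither, so 5 of 7 passed beside 59.3% of all genes. Apom, which carries sphingosine 1-phosphate on high-density lipoprotein, rose in p110αhep-/- mice in all 4 settings. On HFD in the fed state it rose from 14.42 to 15.67, by 1.22 (SE 0.087, adjusted p = 2e-14, limma), and with HFD in fed p110αhep+/+ mice it fell by 0.56 (adjusted p = 2.96e-06, limma). Apof, an inhibitor of cholesteryl ester transfer, fell by 0.45 and Apon by 0.31 in fasted p110αhep-/- mice on HFD, where the dim Apod rose by 0.40. Apoc4, next to Apoc2 in the chromosome 7 cluster, rose with HFD by 0.28 in fed p110αhep-/- mice, where Apon rose by 0.43, and Apof fell with HFD by 0.34 in fasted p110αhep-/- mice. With fasting in p110αhep-/- mice on HFD, Apod rose by 0.40, and Apon and Apof fell by 0.46 and 0.29.

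Of 26 genes listed for assembly and secretion of lipoproteins, 24 were measured, and Ces3 and Prap1 were not among the kept genes. Between genotypes, 6 rose and 13 fell in at least 1 setting, with 1 gene in both counts and 6 in neither, so 18 of 24 passed beside 59.3% of all genes. Ces1f, Cideb, Mia2 and Smlr1 fell in all 4 settings and Tm6sf2 rose in all 4. Tm6sf2, needed for loading lipid onto very-low-density lipoprotein, rose by 0.71 in fasted p110αhep-/- mice on HFD (SE 0.089, adjusted p = 4.27e-08, limma), where Mia3, a cargo receptor for large secretory loads, rose by 0.26. Ces1f, a carboxylesterase, fell there by 0.79 and Smlr1 by 0.78. A1cf, Mia2, Mia3 and Tor1aip1 rose with fasting in all 4 settings, and P4hb and Surf4 fell in all 4, with 0.27 to 0.34 for the rises and -0.42 and -0.34 for the falls in p110αhep-/- mice on CTRL. P4hb, protein disulfide isomerase, is the small subunit of the microsomal transfer protein complex. With fasting, 11 rose and 9 fell in at least 1 setting, including Mia3 in p110αhep-/- mice on HFD (0.57) and Ces1f in p110αhep-/- mice on CTRL (0.56), while Dgat2, which makes triglyceride, fell there by 0.46 and Tm6sf2 fell by 0.44 in p110αhep+/+ mice on HFD. With HFD, 4 rose and 5 fell, and 15 passed in none of the 4 comparisons. With HFD in fasted p110αhep-/- mice, Vmp1 rose by 0.41 and Dgat2 by 0.30, and Ces1f and Tor1a fell by 0.59 and 0.35. The Vmp1 call was lost without both arrays that stood apart (0.33, adjusted p = 0.0574, limma).

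Of 9 genes of lipoprotein uptake, 4 rose, 3 fell and 2 passed in no genotype comparison, so 7 of 9 passed beside 59.3% of all genes. Scarb1, the receptor for high-density lipoprotein, and Lrp1, a receptor for remnants, rose in fed p110αhep-/- mice on HFD by 0.96 and 0.63. With fasting, Mylip, a ubiquitin ligase, rose by 0.68 in p110αhep-/- mice on HFD. Scarb1 rose by 0.43 with fasting in p110αhep+/+ mice on CTRL and fell by 0.33 in p110αhep-/- mice on CTRL (adjusted p = 0.00192, limma), and by as much without both arrays that stood apart. Vldlr, the very-low-density lipoprotein receptor, rose with HFD in all 4 settings, by 1.75 in fed p110αhep+/+ mice. Sdc1, a heparan sulfate proteoglycan that binds remnants, fell with HFD in fasted p110αhep-/- mice, by 0.70.

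Of 9 genes of plasma remodelling and high-density lipoprotein, 6 rose, 1 fell and 2 passed in no genotype comparison, again 7 of 9 beside 59.3% of all genes. Lpl, whose protein ApoC-II activates, rose in p110αhep-/- mice in all 4 settings, by 1.84 in fasted mice on HFD (SE 0.2, adjusted p = 9.74e-10, limma), and with HFD it rose by 1.34 in fed p110αhep-/- mice. Lcat, which esterifies cholesterol on high-density lipoprotein, rose by 0.50 in fed p110αhep-/- mice on HFD and rose with fasting in all 4 settings, by 0.58 in p110αhep+/+ mice on CTRL. Pltp, a phospholipid transfer protein, fell by 1.11 in fed p110αhep-/- mice on CTRL and fell with fasting by 0.69 in p110αhep+/+ mice on CTRL. Lipg rose by 0.86 with fasting in p110αhep-/- mice on CTRL and fell by 0.62 with HFD in fasted p110αhep-/- mice, where the cholesterol exporter Abca1 rose by 0.44. Lipc, hepatic lipase, fell by 0.55 with HFD in fasted p110αhep+/+ mice.

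Of 19 transcription factors listed for control of these genes, 7 rose and 4 fell between genotypes in at least 1 setting, with 1 in both counts and 9 in neither. That is 10 of 19, beside 59.3% of all genes. Srebf1, which drives lipid synthesis under insulin, fell by 0.70 in fed p110αhep-/- mice on CTRL, and Mlxipl, the carbohydrate-responsive factor ChREBP, fell by 0.37 in fasted p110αhep-/- mice on CTRL and by 0.38 without both arrays that stood apart. Foxo1, a forkhead factor restrained by insulin, rose by 0.53 in fasted p110αhep-/- mice on HFD, and the coactivator Ppargc1a rose by 0.61 in fed p110αhep-/- mice on HFD. With fasting, Srebf1 fell by 2.83 and Ppargc1a rose by 0.93 in p110αhep+/+ mice on CTRL, Mlxipl fell by 0.82 in p110αhep-/- mice on CTRL, and Foxo1 rose by 0.99 in p110αhep-/- mice on HFD. With HFD, Mlxipl rose by 0.56 in fasted p110αhep-/- mice and fell by 0.50 in fed p110αhep+/+ mice, where Srebf1 fell by 0.65, and the fatty acid sensor Ppara rose by 0.33 in fed p110αhep-/- mice. With fasting, Foxo1, Hnf4a, Nr1d1, Ppara and Ppargc1b rose and Srebf1 fell in all 4 settings. Across the 5 lists, the genes' medians in the 12 comparisons lay between -0.17 and 0.30, beside -0.02 to 0.03 over all genes. Of 70 calls of listed genes in the 3 comparisons with the fasted p110αhep-/- group on CTRL, 64 were kept without both arrays that stood apart and 6 were lost, and 3 others were gained.

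Genes listed as markers of other cells moved with genotype beside Apoa4 and Apoc2. Of 4 enterocyte markers, Fabp2, a fatty acid binding protein, was among the kept genes, and Vil1, Si and Lct were not. Fabp2 was bright, from 13.66 to 16.08 over all arrays. Without the others it cannot stand for enterocytes in these livers, and the cells that gave its signal were not tested. Fabp2 fell in p110αhep-/- mice by 1.37 and 1.01 in fed mice on CTRL and HFD and by 0.62 and 0.81 in fasted mice (adjusted p at most 0.0051, limma). In the fasted p110αhep-/- group on CTRL, its values were 14.78, 14.57, 14.42, 14.85, 15.96 and 15.93, in which the last 2 are again replicates 5 and 6, and without them the Fabp2 difference there was -0.90 (adjusted p = 2.35e-06, limma). Of the 4 bile duct markers, Spp1 and Epcam fell in all 4 genotype comparisons, with log2 differences of -2.63 to -1.75 for Spp1 and -0.47 to -0.20 for Epcam, and Krt19 and Krt7 fell in 3. Without both arrays that stood apart, the calls in fasted mice on CTRL were lost for Epcam (-0.18, adjusted p = 0.0755, limma) and Krt7 (-0.33, adjusted p = 0.0516, limma). The mean log2 signal of the list was 7.06 to 7.96 in fed p110αhep+/+ mice and 6.51 to 6.90 in fed p110αhep-/- mice, and in fasted mice 6.76 to 7.62 and 6.05 to 6.47. Of these, 3 were dim: Epcam was well above background on 0 or 1 of 6 arrays in each p110αhep-/- group, Krt7 on 0 to 4, and Krt19 on 3 in the fasted p110αhep-/- group on CTRL, so in these groups their values lie near background. Fabp2 also rose with HFD in fed mice, by 0.54 and 0.90 in the 2 genotypes, the setting in which Apoc2 rose. Of 6 Kupffer cell and macrophage markers, at most 1 passed in each direction in any of the 12 comparisons. Of 5 liver endothelium markers, 4 rose in fasted p110αhep-/- mice on HFD, where 19.1% of all genes rose. In the other 3 genotype comparisons at most 2 rose and 1 fell. Of 5 stellate cell markers at most 1 passed in each direction between genotypes, of 3 blood markers at most 1 fell, and of 2 measured adipocyte markers at most 1 rose. Some markers also passed with fasting and HFD. In the 12 comparisons, between 5.18% and 19.1% of all genes passed in a given direction. A single marker of a short list is therefore not set apart from all genes. With fasting on CTRL, 16.5% of all genes fell in p110αhep+/+ and 19.1% in p110αhep-/- mice. With fasting on CTRL, where Apoc3 fell and Apoa1 rose in p110αhep-/- mice and Mttp fell in p110αhep+/+ mice, 3 of the 4 bile duct markers fell in both genotypes (medians of -0.39 in p110αhep+/+ and -0.57 in p110αhep-/- mice). All 3 blood markers (Hba-a1, Hbb-b1 and Alas2) fell there in p110αhep-/- mice (median -0.73) and 1 in p110αhep+/+ mice, and Fabp2 rose by 0.87 in p110αhep-/- mice, or 0.59 without both arrays that stood apart. Of the 5 stellate cell markers, 2 fell with fasting on CTRL in p110αhep+/+ mice and 1 in p110αhep-/- mice. With HFD in fasted p110αhep-/- mice, where Apoa5 and Mttp fell, 2 of the 3 blood markers rose (median 0.80). With HFD in fasted p110αhep+/+ mice, where Apoa5 and Mttp fell as well, 2 of the 5 endothelium markers fell and 2 of the 5 stellate cell markers rose. Of the stellate cell markers 2 also rose with HFD in fed p110αhep+/+ mice, where Apoc2 rose, and 2 endothelium markers fell with fasting in p110αhep+/+ mice on HFD, where Mttp fell and Apoa1 rose. With fasting in p110αhep-/- mice on HFD, where Apoa1 rose, 2 stellate cell markers, 1 bile duct marker and 1 adipocyte marker fell, and 1 endothelium marker rose. The part of these markers in the results was not tested.

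By the likeness of the 8 group means (Pearson's r across 8 means, among 2068 genes with a range of at least 1), an unnamed chromosome 19 transcript read at mm9 chr19:5845052-5845111 followed Apoa4 most closely (r = 0.999, range 3.27). Next came Gm10680 (r = 0.994), whose probe lies within the chromosome 9 cluster on the strand opposite to Apoa4, at chr9:46050711-46050770, and AK158451 (r = 0.990). For Apoc2 the closest were Mtnr1a (0.986), Sema5b (0.980) and Cenpm (0.973), and for Apoa1 Slc39a14 (0.980), Lmx1b (0.972) and A730043L09Rik (0.971). These are descriptions over 8 means that share their mice, chosen from many genes.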

How the data were processed

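Liver RNA of 48 mice was measured on one-colour Agilent arrays (SurePrint G3 Mouse GE 8x60K), 8 arrays to a slide on 6 slides, each slide with 1 array of every group, washed in 2 batches. Per the file headers, signals were extracted with Agilent Feature Extraction 10.10.1.1, and the authors deposited the intensity of each spot and its background without normalization between arrays. The authors also deposited a table of log2 values, filtered by a rule not given in the sources used here, corrected for washing batch and quantile normalized, which served as an alternative. Groups came from the sample labels. The p-values weigh differences between group means against the residual spread between mice, which limma moderates across probes. The washing batch was removed before this fit and was not counted as a term in it. The number of arrays limits the precision.

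Log2 median signals of non-control spots were taken, leaving out outlier spots (92 to 151 on an array), and repeated spots were averaged by probe. The filter kept probes that Feature Extraction marked well above background on 5 or more arrays in any group of 6 (30793 of 56605 probes). The washing batch was removed with limma 3.58.1 (R 4.3.3) while protecting group means, arrays were quantile normalized, and 8 group means were fitted with array weights (0.354 to 1.72, statmod 1.5.0). Both steps used all 48 arrays, also where arrays were later left out. The 18 contrasts (12 simple, 6 interactions) were adjusted by Benjamini-Hochberg over all kept probes, with the brightest probe standing for a gene. No test was done between levels of different probes. On simulated arrays, for the genotype comparison of fed mice on CTRL over 20459 genes, the fit recovered 82 of 100 genes with a set log2 change of 0.5 and 95 of 100 with a change of 1. It also called 6 genes that were not changed. The simulated noise was independent between genes, with no washing batch and no quantile normalization, so it does not cover those steps. Gene symbols and probe positions are those of the scanner output (mm9), and promoter windows are from RefSeq (GRCm38.p6).

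The 9 genes, the pathway and marker lists and the motifs were chosen with earlier results of these data known. Genes of the 5 pathway lists were named by rule, at most 2 with the largest rise and 2 with the largest fall among those called for each kind of comparison, and those called in all 4 comparisons of a kind were named after their values were seen. Some genes of the lipoprotein uptake list are counted but not reported by name here. Genes most like a gene in pattern were taken for the 3 with the widest range of group means. Alternatives covered the background correction, scaling, filters, batch, slide, weights, probes per gene, thresholds and each array left out. The fit without 2 fasted arrays of p110αhep-/- mice on CTRL was added after seeing the data.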

Additional observations from a re-analysis of the deposited data

Results flagged for a closer look

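The response of Mttp differed between groups in 3 interaction tests. The HFD effect in fed p110αhep-/- mice minus that in p110αhep+/+ mice was -0.36, the fasting effect on HFD differed in the same way by 0.40, and the fasting effect in p110αhep+/+ mice on HFD minus that on CTRL was -0.38.

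In 8 of 72 groups of 6 arrays (9 genes in 8 groups), the highest or lowest array lay farther from its neighbour than Dixon's 95% limit for 6 values allows, where chance alone gives about 1 in 20 groups. These were Apoa1 in fasted p110αhep-/- mice on HFD (replicate 3 at 16.33, the others from 16.76 to 16.93), Apoc2 in fed p110αhep-/- mice on CTRL (replicate 2 at 15.77, the others from 16.22 to 16.43), and Mttp in fed p110αhep+/+ mice on CTRL (replicate 4 at 11.78, the others from 11.92 to 11.99). Apoc3 in fasted p110αhep+/+ mice on CTRL had replicate 2 at 17.85, above 17.74 to 17.78. Apoa2 had replicate 6 at 18.61 in fed p110αhep+/+ mice on CTRL and replicate 6 at 18.82 in those on HFD. Apoe had replicate 5 at 18.82 in fed p110αhep+/+ mice on HFD and replicate 2 at 18.70 in fed p110αhep-/- mice on CTRL. The differences for Apoa2 and Apoe are steps of few ranks among the brightest probes.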

How the results depend on the processing

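The count of genotype calls was 14, and 16 of 19 alternatives gave a count within 1.5 times of it. It was 9 within washing batch 1 and 7 within batch 2, with 3 arrays a group, and 4 with a fold change over 1.5. The count of diet calls, 7, left that range under 7 of 19 alternatives: it was 12 with the processed signal scaled to the 75th percentile, 11 with median scaling, 11 with probes of a gene summarised by their median, 13 with any probe of a gene, 1 and 4 within washing batches 1 and 2, and 1 with the fold threshold. The count of fasting calls, 6, was 3 within washing batch 2 and 0 with the fold threshold, and at most 9, with 75th percentile scaling or any probe. The 3 interaction calls became 1 with no filter on dim probes, 0 within either washing batch, 0 with the fold threshold and 0 at an adjusted p of at most 0.01. The cause of these shifts was not tested. The fits within a washing batch differed from the main fit in both the batch and the number of arrays. With each array left out in turn, the counts ranged from 13 to 15 for genotype, 6 to 9 for diet, 5 to 8 for fasting and 2 to 5 for interactions, the 5 without replicate 1 of the fasted p110αhep-/- mice on HFD. One called difference reversed: Apoa1 with fasting in p110αhep-/- mice on HFD was -0.05 within washing batch 2. Replicate numbers are shared across groups, but arrays of the same number did not deviate together (mean correlation 0.0179, lowest -0.351), so they were not taken as pairs. With the replicate block the counts were 14 for genotype, 8 for diet, 6 for fasting and 3 for interactions, and Mttp with HFD in fed p110αhep-/- mice, at -0.20 and not called without the block (adjusted p = 0.0549, limma), was called at -0.21, as it was under 6 other alternatives. With the slide as a block the counts were 15, 7, 7 and 3 in the same order. Without the 2 fasted p110αhep-/- arrays on CTRL that stood apart, a choice made after seeing the data, the counts were 14, 7, 6 and 3. Signal over background limits the second Mttp probe.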
